A study of Mus musculus with 8 samples.

Results

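Laminin chains and nidogens, structural proteins of the basement membrane, were followed in cultured mouse keratinocytes (KCs), the epithelial cells of the epidermis. The 9 genes Lama3, Lama4, Lama5, Lamb1, Lamb2, Lamb3, Lamc1, Nid1 and Nid2 were picked by their symbols from the 41457 genes in the deposited tables. Of these 9 genes, 8 had enough reads to be tested among 12590 genes, and Nid2 had too few.

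All KCs came from the tails of adult wildtype C57BL/6 mice (C57BL/6J in the study's text) and received no treatment. They grew in serum-free, low-calcium KC medium for 1 week in 4 samples and for 3 weeks in the other 4, and the number and sex of the animals behind each culture are not given in the sources used here. The KCs are bulk cultures, so that fewer cells of a type and less RNA per cell cannot be told apart. The tables held between 13896807 and 20026084 exon reads per sample. The summed level of 10 KC markers, among them Krt5 and Krt14, was 14680 to 17360 RPKM (exon reads scaled by exon length and by all reads a sample had mapped) at 1 week and 9902 to 11110 RPKM at 3 weeks. Of these 10 markers Epcam was called higher at 3 weeks (log2 fold change 0.74, adjusted p 0.00591 in edgeR) and Krt5, a keratin of basal KCs, lower, from between 6039 and 6384 RPKM to between 1938 and 2581 RPKM, while 8 were not called, and the median log2 fold change was -0.07. In the same samples 10 fibroblast markers summed to at most 7.53 RPKM, 10 endothelial markers to at most 4.90 RPKM and 8 mural cell markers to at most 12.6 RPKM. The sum of 8 melanocyte and Schwann cell markers was 3.44 to 21.2 RPKM at 1 week and 1.38 to 5.81 RPKM at 3 weeks, and that of 8 immune markers was 2.46 to 6.53 RPKM and 2.40 to 6.48 RPKM.

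A laminin is a cross-shaped trimer of an alpha, a beta and a gamma chain, each encoded by its own gene. The products of Lama3 and Lamb3 belong to the anchoring laminin of the epidermis, which binds basal KCs through integrins of hemidesmosomes, and loss of either of them causes skin blistering. Trimers with the Lama5, Lamb1 or Lamb2 and Lamc1 products form the sheet-like network of most basement membranes, and nidogens link this network to collagen IV.

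Among the 9 genes the anchoring chains led at both times. At 1 week the mean level per exon length was highest for Lamb3, at 87.4 ± 20.8 RPKM (SD, n = 4), and second for Lama3, at 41.6 ± 14.1 RPKM. Lamb1 followed at 16.4 ± 2.34 RPKM, Lamc1 at 8.57 ± 1.92 RPKM, Lama5 at 6.78 ± 0.731 RPKM and Nid1 at 6.22 ± 1.85 RPKM. Lamb2, at 2.11 ± 0.0887 RPKM, and Lama4, at 0.971 ± 0.379 RPKM, were low, and Nid2 stood at 0.0432 ± 0.0204 RPKM. Lamc1 and Lama5, and Lama5 and Nid1, overlapped between samples in this order, whereas the other neighbours did not. At 3 weeks the order of the means was Lamb3, Lama3, Lamb1, Nid1, Lamc1, Lama5, Lamb2, Lama4 and Nid2, and all neighbours overlapped except Lama4 and Nid2. Within each of the 8 samples Lamb3 exceeded Lama3, by a ratio of RPKM between 1.16 and 2.54.

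**Figure D1:**
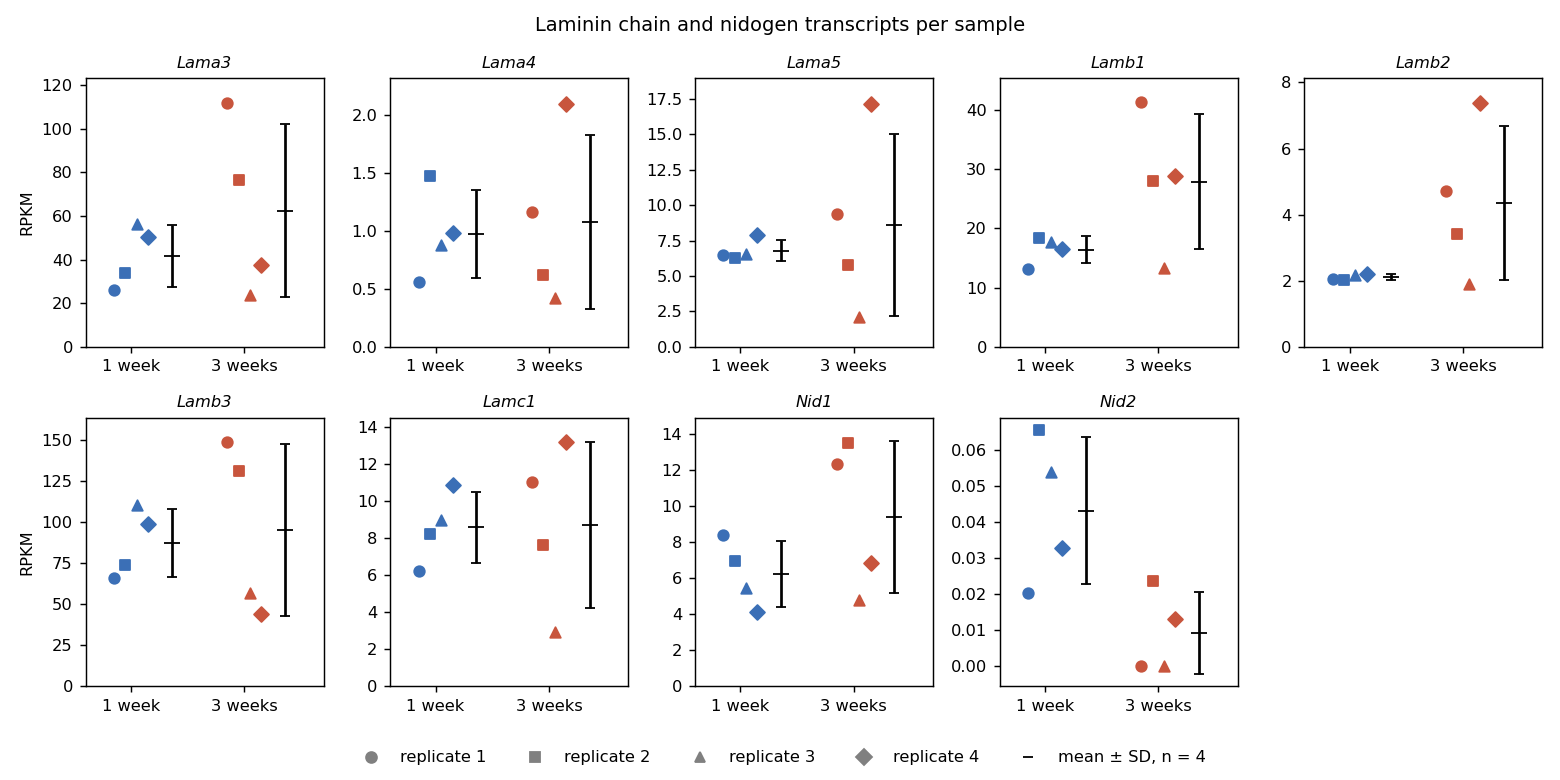
RPKM (vertical axes, each on its own scale) of the 9 genes in each KC sample cultured for 1 week (blue) or 3 weeks (red). Symbols mark the replicate numbers and black bars the mean ± SD of 4 samples. The 3-week samples spread widely for every laminin chain, and Lamb1 and Lamb2 lie above the 1-week samples in all 3-week samples except replicate 3.

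To learn whether culture time changed these transcripts, the exon reads of all genes were compared between 3 weeks and 1 week by edgeR's quasi-likelihood test, and p-values were adjusted over all tested genes (Benjamini-Hochberg). Lamb1 and Lamb2, 2 of the 3 beta chains, were higher at 3 weeks with an adjusted p under 0.05. None of the 8 tested genes was lower by the same test, 0 were lower at an unadjusted p under 0.05, and 0 were lower in DESeq2, which called 19.5% of all genes lower. Over all tested genes 15.7% were called higher and 17.0% lower, so that 2 of 8 is close to the background of called genes. The share lower at an unadjusted p under 0.05 was not counted over all genes and is at least these 17.0%. With 8 genes, 0 lower is not read as a result about the members. The fitted log2 fold changes of the 8 genes were all above 0, with a median of 0.59 against 0.03 for all tested genes. The members have over 5 kb of exon, and the median of all tested genes rose with exon length. It was 0.024 at 5 to 7 kb, 0.087 at 7 to 10 kb and 0.186 over 10 kb. On the log2(RPKM + 0.1) scale, where the median of all genes was -0.16, the log2 fold changes of Lama4, Lama5, Lamb3 and Lamc1 were below 0. For no member did the RPKM values of the 2 groups separate completely, whereas 10.8% of all tested genes lay wholly higher and 26.2% wholly lower at 3 weeks.

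Lamb1 encodes the widespread beta chain of network-forming laminins. Its level at 1 week was 13.1, 18.3, 17.7 and 16.5 RPKM in replicates 1 to 4. At 3 weeks it was 41.3, 28.0, 13.3 and 28.8 RPKM. Thus 3 of the 4 samples of 3 weeks lay above all samples of 1 week, and replicate 3 lay among them. In edgeR Lamb1 rose 1.88-fold, with a log2 fold change of 0.91 ± 0.27 (SE) and an adjusted p of 0.0290.

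Lamb2 encodes the beta chain found in basement membranes of muscle, nerve and kidney and, at lower levels, of skin. At 1 week the samples were nearly alike, at 2.05, 2.03, 2.16 and 2.21 RPKM. At 3 weeks they held 4.72, 3.42, 1.89 and 7.39 RPKM. Replicate 3 of 3 weeks was the lowest of all 8 samples and the other 3 were the highest. Lamb2 rose 2.26-fold in edgeR (log2 fold change 1.18 ± 0.32 SE, adjusted p 0.0214), from between 189 and 660 exon reads per sample.

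Both calls depended on which samples entered the fit. Lamb1 lost its call (adjusted p 0.0551 to 0.0967 in edgeR) without any of the 4 samples of 1 week, without 3 weeks replicate 1 or without 3 weeks replicate 2. Lamb2 lost it (adjusted p 0.0505 to 0.0655) without any of the samples of 1 week or without 3 weeks replicate 1. Without 3 weeks replicate 3 both differences grew, to log2 fold changes of 1.09 for Lamb1 and 1.39 for Lamb2, in a fit that called 17.1% of all tested genes higher.

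Lamb3, the beta chain of the anchoring laminin, did not pass the test. Its levels were 65.9, 74.2, 110 and 99.1 RPKM at 1 week and 149, 131, 56.7 and 43.8 RPKM at 3 weeks. Replicates 1 and 2 of 3 weeks lay above, and replicates 3 and 4 below, the whole range of 1 week. The log2 fold change of 0.27 ± 0.38 (SE; adjusted p 0.612 in edgeR) is thus an average over samples that went in opposite directions.

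The start regions of the 3 beta chain genes are printed since these genes encode the same class of chain while 2 of the 3 were called. A link between these sequences and the levels was not tested. The tables for GRCm38.p6 from RefSeq held promoters of 5 of the 9 genes (Lama5, Lamb1, Lamb2, Lamb3 and Nid1), each with 250 bases before and 50 bases after the annotated start. The Lamb1 window is chr12:31265043-31265342, the Lamb2 window chr9:108479612-108479911 and the first of 2 Lamb3 windows chr1:193301744-193302043, all on the plus strand. Capitals mark matches to the GC box (GGGCGG or CCGCCC) or to the AP-1 site (TGACTCA or TGAGTCA), searched on both strands.
Lamb1: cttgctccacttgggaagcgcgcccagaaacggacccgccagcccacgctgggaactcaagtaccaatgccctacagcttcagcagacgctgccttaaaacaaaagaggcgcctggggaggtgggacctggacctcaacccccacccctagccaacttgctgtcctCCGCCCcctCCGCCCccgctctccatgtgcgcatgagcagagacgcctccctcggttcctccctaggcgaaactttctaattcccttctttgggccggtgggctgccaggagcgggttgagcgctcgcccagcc
Lamb2: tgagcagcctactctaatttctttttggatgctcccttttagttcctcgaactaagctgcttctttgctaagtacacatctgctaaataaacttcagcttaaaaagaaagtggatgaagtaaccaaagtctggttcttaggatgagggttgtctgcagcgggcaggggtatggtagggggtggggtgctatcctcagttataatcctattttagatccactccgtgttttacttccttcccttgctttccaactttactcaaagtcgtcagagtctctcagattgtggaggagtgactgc
Lamb3: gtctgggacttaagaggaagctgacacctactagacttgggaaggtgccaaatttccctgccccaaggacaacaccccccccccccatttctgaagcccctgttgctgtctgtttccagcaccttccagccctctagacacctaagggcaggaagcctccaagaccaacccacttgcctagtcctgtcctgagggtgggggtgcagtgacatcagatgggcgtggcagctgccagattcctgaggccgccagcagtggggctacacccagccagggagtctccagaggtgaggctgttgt
The Lamb1 window held 2 GC boxes, and the Lamb2 and Lamb3 windows held none. The Lama5 window held 4 GC boxes and the Nid1 window 1. Among the 32851 promoters with a sequence, 35.7% held a GC box and 5.20% an AP-1 site, of which none was found in the windows of the 5 genes, and no match overlapped another. The GC content was 63.7% for Lamb1, 44.0% for Lamb2 and 59.3% for Lamb3, against a median of 52.7% over all promoters.

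Among the alpha chains, Lama3 of the anchoring laminin was the most abundant. It held 25.9, 33.9, 56.4 and 50.3 RPKM at 1 week and 112, 76.3, 23.7 and 37.6 RPKM at 3 weeks. Replicates 1 and 2 of 3 weeks exceeded every 1-week sample and replicate 3 was the lowest of all. The log2 fold change was 0.72 ± 0.44 (SE), with an adjusted p of 0.238 in edgeR.

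Lama5 encodes the main alpha chain of network laminins under adult epithelia. Its levels lay close together at 1 week, at 6.46, 6.28, 6.52 and 7.87 RPKM. At 3 weeks they ranged over 8.26-fold, with 9.35, 5.76, 2.07 and 17.1 RPKM in replicates 1 to 4. The lowest and the highest of the 8 samples were both from 3 weeks, and the log2 fold change was 0.46 ± 0.47 (SE; adjusted p 0.490 in edgeR).

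Lama4, an alpha chain typical of blood vessels and mesenchyme, stayed near 1 RPKM or below in most samples. It held 0.557, 1.47, 0.877 and 0.977 RPKM at 1 week and 1.16, 0.615, 0.424 and 2.09 RPKM at 3 weeks, from 84 to 371 exon reads. The groups overlapped, with a log2 fold change of 0.28 ± 0.46 (SE; adjusted p 0.675 in edgeR). Endothelial markers summed to between 3.22 and 4.90 RPKM at 1 week and between 1.86 and 2.61 RPKM at 3 weeks, with Emcn and Cldn5 at no more than 3 reads in any sample. Mural cell markers summed to between 1.69 and 3.01 RPKM at 1 week and between 2.23 and 12.6 RPKM at 3 weeks. The highest mural sum fell in replicate 4 of 3 weeks, which was also the highest sample for Lama4, Lama5, Lamb2 and Lamc1, and 10.8 RPKM of it came from Notch3, a receptor that KCs express too. Of the 8 mural markers 3 had enough reads to be tested. Notch3 was called higher at 3 weeks (log2 fold change 1.72, adjusted p 0.0472 in edgeR). Pdgfrb (-1.74, adjusted p 0.0102) and Cspg4 (-2.23, adjusted p 0.0185) were called lower. Of those not tested, Myh11 held 0.01382 to 0.04472 RPKM at 1 week and 0.03205 to 1.496 RPKM at 3 weeks. Rgs5 and Des stayed at or below 0.1622 RPKM at both times. Abcc9 and Kcnj8 had no more than 3 reads in any sample. The part of other cell types in these levels was not tested.

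Lamc1, the gamma chain of network laminins, held 6.22, 8.21, 8.98 and 10.9 RPKM at 1 week. It held 11.0, 7.64, 2.90 and 13.2 RPKM at 3 weeks, so that the 1-week samples lay inside the range of 3 weeks. The log2 fold change was 0.15 ± 0.37 (SE; adjusted p 0.783 in edgeR).

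Nid1 encodes nidogen-1, the linker between laminin and collagen IV networks. It held 8.38, 6.95, 5.47 and 4.10 RPKM at 1 week and 12.4, 13.5, 4.78 and 6.85 RPKM at 3 weeks. Replicates 1 and 2 of 3 weeks exceeded all 1-week samples, and replicates 3 and 4 lay among them. The log2 fold change was 0.73 ± 0.33 (SE), with an adjusted p of 0.120 in edgeR over all samples and of 0.0428 without 3 weeks replicate 3.

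Nid2, the second nidogen, had 2, 7, 4 and 3 exon reads at 1 week and 0, 2, 0 and 1 exon reads at 3 weeks. A level of 3 reads equals between 0.0282 and 0.0404 RPKM in these samples, and the filter on low counts kept Nid2 out of the test. In a fit without this filter its log2 fold change was -2.03 ± 0.90 (SE; adjusted p 0.155 in edgeR), which rests on these few reads. Nid2 overlaps Rtraf on the opposite strand, a gene with 1462 to 3151 exon reads per sample, and no source used here says whether strand entered the counting. Among the other overlaps on the opposite strand, Hsd11b1 and G0s2 lie within the annotated span of Lamb3 with at most 91 exon reads, against at least 4254 for Lamb3. An antisense transcript within Lama3, Gm29200, had at most 40 exon reads.

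Lama1, Lama2 and Lamc3, other laminin chain genes with a row, had at most 11 exon reads in any sample and were not tested.

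The make-up of the alpha and beta classes was described by the share of each chain in the summed RPKM of its class. Lamb3 made up 82.2 ± 2.86% (SD, n = 4) of the beta chain RPKM at 1 week and 72.7 ± 12.1% at 3 weeks, and Lamb1 15.8 ± 2.63% and 23.2 ± 8.67%. Lamb2 contributed 2.05 ± 0.373% and 4.10 ± 3.43%. Lama3 held 83.4 ± 4.23% of the alpha chain RPKM at 1 week and 85.1 ± 12.6% at 3 weeks, which overlapped between samples. Replicate 4 of 3 weeks stood apart in both classes, with Lamb3 at 54.8% of the beta chains, Lama3 at 66.2% of the alpha chains and Lama5 at 30.1% of them.

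**Figure D2:**
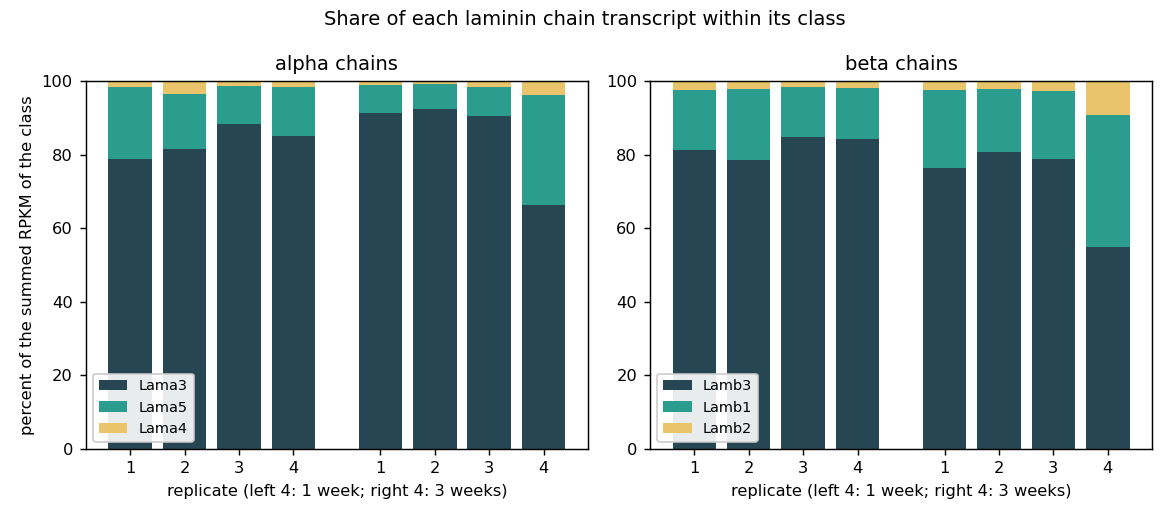
Share (percent of the summed RPKM of the class, vertical axis from 0 to 100) of each chain transcript in the alpha and beta class, by sample. In each panel the left 4 bars are replicates 1 to 4 of 1 week and the right 4 bars those of 3 weeks. Replicate 4 of 3 weeks holds 66.2% Lama3 and 54.8% Lamb3.

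The members varied more between cultures at 3 weeks than at 1 week. The SD of log2 CPM (counts scaled to library size) over the 4 samples was 0.06 to 0.55 at 1 week and 0.60 to 1.20 at 3 weeks, against medians of 0.22 and 0.34 over all tested genes. It was larger at 3 weeks for 8 of the 8 tested members and for 72.1% of all tested genes. Of all tested genes 20.5% had at 3 weeks an SD at or above that of Lamb1, the lowest among the members. Replicate 3 of 3 weeks was the lowest of its group for 7 of the 8 members, all except Lamb3. Replicate 4 was the highest for Lama4, Lama5, Lamb2 and Lamc1, and replicate 1 for Lama3, Lamb1 and Lamb3.

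The median deviation of all tested genes moved with exon length, most in replicates 3 and 4 of 3 weeks, and less in other samples. In replicate 1 of 1 week it went from 0.112 for genes under 2 kb to -0.200 for genes over 10 kb. In replicate 4 of 1 week it went from -0.035 to 0.124 and in replicate 1 of 3 weeks from -0.133 to 0.185. Several members did not follow this trend in replicate 4 of 3 weeks. Laminin and nidogen transcripts are long, with 5174 to 12068 bases of exon against a median of 4343 bases over all tested genes. In replicate 3 of 3 weeks the median log2 deviation from the group mean went from 0.37 for genes under 2 kb to -0.47 for genes over 10 kb. In replicate 4 of 3 weeks it went the other way, from -0.26 to 0.35. Of the members over 10 kb in replicate 3, Lama3 stood at -0.997, Lama4 at -0.91 and Lama5 at -1.52, all further below the group mean than the median of their length class. In replicate 4 Lama4 (1.16) and Lama5 (1.31) lay above the median of 0.35 in this class, whereas Lama3 lay below the group mean, at -0.54. Lamb3, at -0.99, and Nid1, at -0.39, also lay below it, although the median of the class of 5 to 7 kb was 0.036. With offsets taken from a smooth trend on exon length, a fit that called 18.1% of all genes higher, edgeR gave Lamb1 an adjusted p of 0.0120 at 0.81 on the log2 scale. It gave Lamb2 an adjusted p of 0.0137 at 1.17, and called no other member. The log2 fold changes of the others in that fit were 0.64 for Lama3, 0.71 for Nid1, 0.28 for Lamb3, 0.24 for Lama5, 0.086 for Lama4 and 0.064 for Lamc1.

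**Figure D3:**
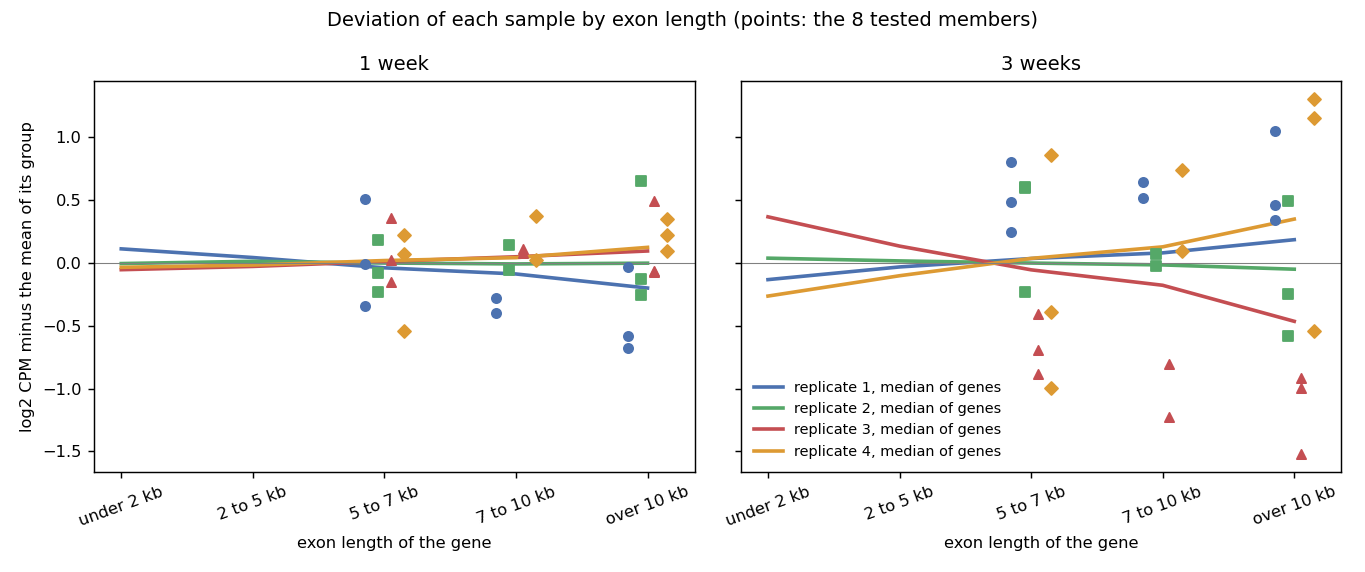
Deviation of log2 CPM from the mean of its group (vertical axis) by exon length class of the gene (horizontal axis, kb) at 1 week and 3 weeks. Lines are medians of all tested genes of a class in 1 sample and points the 8 tested members in the same colour. Replicate 3 of 3 weeks declines from 0.37 to -0.47 with length while replicate 4 climbs from -0.26 to 0.35, and the members of replicate 3 lie below its line.

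**Figure D4:**
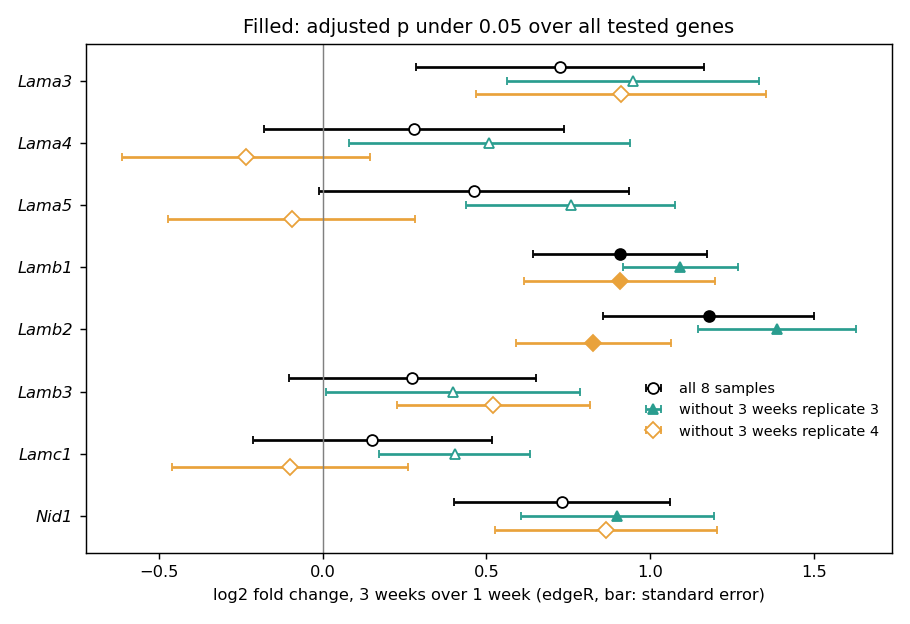
Log2 fold change of 3 weeks over 1 week with its standard error (horizontal axis, edgeR) for the 8 tested members, with all 8 samples, without 3 weeks replicate 3 and without 3 weeks replicate 4. Filled symbols have an adjusted p under 0.05. Lamb1 and Lamb2 are filled in all 3 fits and Nid1 only without replicate 3, while Lama4, Lama5 and Lamc1 lie below 0 without replicate 4.

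The deposited tables carry preparation numbers, of which 46, 49 and 90 occur at both times. Within these 3 preparations Lamb2 RPKM was 2.31, 1.58 and 3.34 times the 1-week value at 3 weeks. The ratio was 3.15, 1.58 and 1.75 for Lamb1 and 1.47, 2.47 and 1.67 for Nid1. These preparations leave out 1 week replicate 2 and 3 weeks replicate 3, and the latter was the lowest 3-week sample for Lamb1, Lamb2 and Nid1. With the preparation as a block, edgeR called 10.4% of all tested genes higher, and Nid1 was called too (log2 fold change 0.94, adjusted p 0.0221), beside Lamb1 (1.12, adjusted p 0.0214) and Lamb2 (1.28, adjusted p 0.0175). Lamb3 changed direction between preparations, with ratios of 2.26, 1.19 and 0.442.

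Reads on introns gave a second readout from the same libraries. They made up less than 1.5% of the gene reads for each member that could be tested on them. Of 4016 genes tested on intron reads 4.21% were called higher and 4.56% lower at 3 weeks, and 0 of the 4 tested members (Lama3, Lama5, Lamb1 and Lamb3) were called in edgeR. At an unadjusted p under 0.05, 2 of the 4 (Lama3 and Lamb1) passed, both higher, where 12.5% of the 4016 genes passed as higher, and no other tool was run on introns. Lamb1 had 3 to 13 intron reads at 1 week and 14 to 39 at 3 weeks, as raw counts not scaled for the depth of the samples. Its log2 fold change on introns was 1.26 ± 0.40 (SE), with an adjusted p of 0.0628 in edgeR. The log2 fold change on introns was 0.84 ± 0.34 for Lama3 (adjusted p 0.142) and, for Lamb3, -0.01 ± 0.41 (adjusted p 0.993). Lamb3 had 9 to 38 intron reads at 1 week and 17 to 53 at 3 weeks, and Lama3 53 to 71 and 58 to 198. Genes on the opposite strand had up to 91 exon reads within Lamb3 (Hsd11b1) and up to 40 within Lama3 (Gm29200). Whether such reads entered these intron counts is not known.

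The genes most like each member over the 8 samples, by Pearson's r of log2 CPM among 8743 genes, were searched as a description. They were Wwc2 (0.987) and Brd2 (0.985) for Lamb1, Pld1 (0.992) and Usp32 (0.990) for Lamb2, and Copg1 (0.977) and 1810055G02Rik (0.951) for Lamb3. Lima1 (0.989) and Tspan9 (0.987) were nearest to Lama3, Dop1a (0.988) and Kmt2b (0.986) to Lama5, and Gpatch2 (0.982) and Synj2 (0.966) to Lama4. For Lamc1 they were Cramp1l (0.995) and Tcf20 (0.994), and for Nid1 Map1s (0.943) and Ttc7b (0.919). Between members r was highest for Lama5 with Lamc1, at 0.934, and for Lama3 with Lamb3, at 0.856. It was lowest for Lama4 with Lamb3, at -0.249. The samples share depth and the length trend, and 2 culture times enter each of these values.

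Laminins act through receptors and beside other basement membrane proteins. Among 15 receptor and hemidesmosome genes, 2 were called higher, 2 lower and 11 neither, with a median log2 fold change of 0.13. Over all tested genes 15.7% were called higher and 17.0% lower. Itgb1, the integrin beta subunit shared by several laminin receptors, rose from 320 ± 32.9 to 497 ± 99.4 RPKM (log2 fold change 0.79, adjusted p 0.00698 in edgeR). Sdc4, the heparan sulfate proteoglycan syndecan-4, rose by a log2 fold change of 0.64 (adjusted p 0.0191). Itga2, the alpha subunit of a collagen and laminin receptor, fell by 1.60 on the log2 scale (adjusted p 0.0181). Itga6, the alpha subunit of the hemidesmosomal laminin receptor, fell by 0.75 on the log2 scale (adjusted p 0.0391). Of these calls, those of Itgb1 and Itga2 held without any of the 8 samples. That of Sdc4 was lost without 1 week replicate 1 or 2 or without 3 weeks replicate 1 or 2 (adjusted p 0.0510 to 0.0672), and that of Itga6 without 1 week replicate 3 or 4 or without 3 weeks replicate 2, 3 or 4 (adjusted p 0.0503 to 0.107). With the 3 shared preparations as a block Itga2 (adjusted p 0.0576), Itga6 (0.10) and Sdc4 (0.0952) were not called. With the replicate numbers as a block Itga6 (0.104) and Sdc4 (0.0637) were not called.

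Among 16 tested genes of other basement membrane proteins, 10 were called higher, 1 lower and 5 neither, and the median log2 fold change was 1.25. The shares over all tested genes were 15.7% higher and 17.0% lower. The number called higher was 4 on both RPKM scales in limma and with the replicate block. Those fits called 1292, 1252 and 1309 of all 12590 genes higher, against 1981 in the main fit. In this list 14 were called higher with the 3 shared preparations as a block. That fit, without 3 weeks replicate 3, called 10.4% of all tested genes higher. Col4a5, a chain of collagen IV, rose by a log2 fold change of 2.08 ± 0.63 (SE; adjusted p 0.0332 in edgeR), which fell to 0.94 without 3 weeks replicate 4 (adjusted p 0.0182), and Col4a1, another, rose by 1.88 ± 0.58 (adjusted p 0.0348). Fbln2, a fibulin that binds laminin and nidogen, rose from 2.44 ± 0.621 to 8.91 ± 2.67 RPKM (log2 fold change 2.02, adjusted p 0.000635). Sparc, a collagen-binding matricellular protein, rose from 17.9 ± 3.84 to 62.8 ± 19.6 RPKM (log2 fold change 1.99, adjusted p 0.00126). Fbln1, a related fibulin, fell by 1.75 on the log2 scale (adjusted p 0.000369). Without each of the 8 samples in turn, 4 of the 10 higher calls held throughout, those of Fbln2, Sparc, Tinagl1 and Pxdn, as did that of Fbln1. Those of Col4a1 and Col4a5 were lost without any of the 1-week samples, and that of Col4a1 also without 3 weeks replicate 1 or 4 (adjusted p 0.0540 to 0.0994).

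The list of enzymes with a direct or indirect part in cleaving laminin or nidogen chains held 10 tested genes. Of these, 4 were called higher, 1 lower and 5 neither, with a median log2 fold change of 0.18. Of all tested genes 15.7% were called higher and 17.0% lower. The number called higher was 2 on both RPKM scales in limma and with the replicate block. Those fits called 1292, 1252 and 1309 of all 12590 genes higher, against 1981 in the main fit. Bmp1, a proteinase that processes laminin chains and procollagens, rose from 8.22 ± 1.42 to 24.2 ± 8.47 RPKM (log2 fold change 1.71, adjusted p 0.000942 in edgeR). Plau, urokinase, rose from 289 ± 64.8 to 593 ± 156 RPKM (log2 fold change 1.19, adjusted p 0.00364). Plat, tissue plasminogen activator, rose by 1.91 (adjusted p 0.0320) and Mmp14, a membrane-bound metalloproteinase, by 0.99 (adjusted p 0.0172), both on the log2 scale. Mmp3, stromelysin-1, fell by 2.12 on the log2 scale (adjusted p 0.00621). The call of Mmp14 was lost without 1 week replicate 1 (adjusted p 0.0673) and that of Plat without 1 week replicate 2, 3 or 4 (adjusted p 0.0719 to 0.0861). The log2 fold change of Plat was 1.00 without 3 weeks replicate 4 (adjusted p 0.0353).

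**Figure D5:**
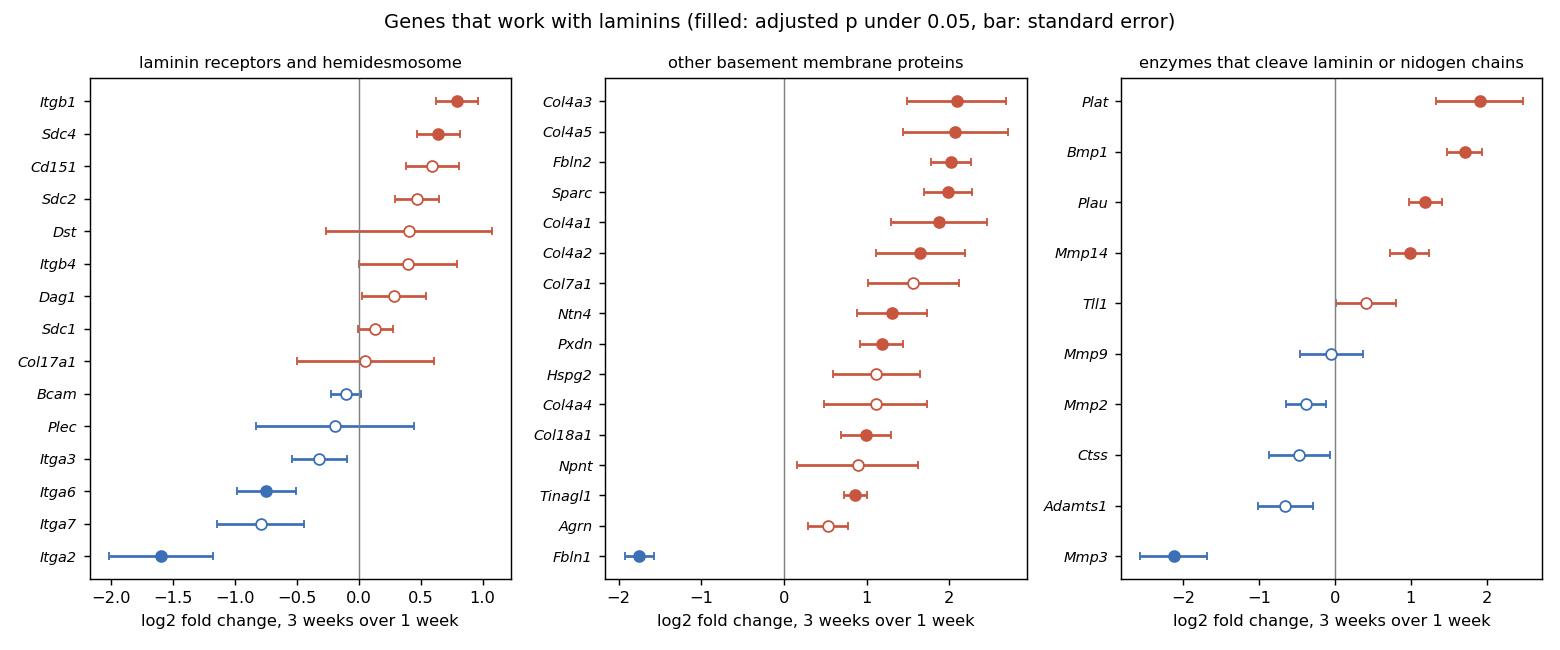
Log2 fold change of 3 weeks over 1 week with its standard error (horizontal axis, edgeR) for the tested genes of 3 lists. Filled symbols have an adjusted p under 0.05, red lies above 0 and blue below. Of 16 basement membrane genes 15 lie above 0 and 10 of them are filled, while the 15 receptor genes lie on both sides.

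The 8 tested genes lie on 7 chromosomes of GRCm38, with Lamb3 and Lamc1 both on chromosome 1. In the deposited annotation Lamb1 (ENSMUSG00000002900) spans chr12:31265234-31329644 on the plus strand with 46 exons and 9917 bases of exon. Lamb2 (ENSMUSG00000052911) spans chr9:108479736-108490530 on the plus strand, also with 46 exons, in 6082 bases. Lamb3 (ENSMUSG00000026639) spans chr1:193207699-193343878 on the plus strand with 42 exons, and its 2 RefSeq starts lie inside that span.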

How the data were processed

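Poly(A) RNA of KCs was sequenced in 8 samples, grouped by the culture time in their labels. The authors counted reads in the CLC Genomics Workbench at default settings on GRCm38 and deposited whole-number counts per gene (total and unique exon reads, intron reads) without normalization, with deposited RPKM values that equal total exon reads divided by exon length and mapped reads. Annotation release and use of strand are not given in the sources used here. Deposited gene coordinates of all 9 members equalled those of GENCODE M21.

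The test on total exon reads was that of edgeR 4.0.16, run in R 4.3.3 (filterByExpr, TMM, glmQLFit, glmQLFTest, 4 samples against 4, Benjamini-Hochberg over 12590 genes, threshold 0.05), without pairing, since the study names unpaired tests. The study also says that KCs of the same batches were grown for either time, and 3 preparation numbers recur at both times, so a fit with the preparation as a block was run too. Intron counts were tested alike over 4016 genes. Standard errors were derived from the F statistics. On simulated counts for 12590 genes the exon test recovered 95.8% of genes changed 4-fold and 30.9% of genes changed 2-fold. The simulation gave every gene the same dispersion (a setting for spread) in both groups and no trend on exon length. At 3 weeks the members spread more than the median gene, so these shares do not hold for the members. RPKM values, shares and ratios were described without a test. Between 81.6% and 84.7% of exon reads of a sample mapped uniquely.

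The members and the lists were chosen with earlier results of these data known. All 9 members were named. A gene of a related list is not reported here. From each related list, genes with an adjusted p under 0.05 and a mean of at least 10 CPM were named, at most 4 higher and 4 lower by size of the log2 fold change. Tinagl1, Pxdn and the overlapping genes were named after their values were seen. For each member the 2 genes with the highest r were named. Alternatives used DESeq2 1.42.0, limma 3.58.1 on log2(RPKM + 0.1) or log2(RPKM + 1), other scalings, filters and reads, blocks, and each sample left out. The offsets by exon length were added after seeing the data. The smallest chi-square per degree of freedom between replicates was 15.5, so none was taken for a repeat run of another library. This value cannot show that the cultures were independent. Each was counted as a sample. The design text of the series speaks of 4 experiments that were independent. Figures were drawn with Python 3.11.15 and matplotlib 3.10.9.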

Additional observations from a re-analysis of the deposited data

Results flagged for a closer look

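In 6 of 30 sets of 4 samples, the highest or lowest sample lay far from the other 3, by Dixon's test at its 95% limit, which chance passes in about 5% of sets. Of these, 4 were from 3 weeks, and in each of the 4 the sample apart was replicate 4. Its share of alpha chain RPKM was 66.2% for Lama3 (nearest other sample 90.5%) and 30.1% for Lama5 (nearest 7.91%). Its share of beta chain RPKM was 54.8% for Lamb3 (nearest 76.4%) and 9.23% for Lamb2 (nearest 2.63%). These shares are parts of the same sums and do not vary independently.

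The other two were from 1 week. Lama5 was highest in replicate 4, at 7.87 RPKM (nearest 6.52), and in replicate 2 Lama4 made up 3.53% of the alpha chain RPKM (nearest 1.69%).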

How the results depend on the processing

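Precision is limited by 4 samples per time. The calls of Lamb1 and Lamb2 held with DESeq2, both other edgeR scalings and both other filters. They held too with unique exon reads, all reads on the gene and the exon-length offsets. With the 3 shared preparations, a fit that leaves out 1 week replicate 2 and 3 weeks replicate 3, they also held. With limma on log2(RPKM + 0.1) or log2(RPKM + 1), 0 members were called higher, with Lamb1 at 0.66 and 0.64 and Lamb2 at 0.85 and 0.68 on the log2 scale. There 1292 or 1252 genes were higher and 3025 or 3103 lower, against 1981 and 2146 in edgeR. Leaving out each sample in turn, the members called higher numbered 0 to 3, in fits that called 1371 to 2284 of all genes higher. On intron reads they numbered 0 to 2. With the scaling factors of the exon reads, 2 members (Lama3 and Lamb1) were called higher on intron reads, in a fit that called 19.0% of all genes higher and 1.60% lower.

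Members that were not called changed sign in some fits. On log2(RPKM + 0.1) the log2 fold change was -0.018 for Lama4, -0.023 for Lama5, -0.035 for Lamb3 and -0.15 for Lamc1. On log2(RPKM + 1) it was -0.032 for Lamb3 and -0.11 for Lamc1. Without 3 weeks replicate 4 it was -0.23 for Lama4, -0.094 for Lama5 and -0.10 for Lamc1, and without 3 weeks replicate 1 it was -0.011 for Lamb3. Leaving out each sample, it ranged from -0.23 to 0.54 for Lama4, -0.09 to 0.76 for Lama5, -0.01 to 0.52 for Lamb3 and -0.10 to 0.40 for Lamc1. On intron reads Lamb3 was at 0.46 with the factors of the exon reads and ranged from -0.28 to 0.20 with each sample left out. The causes were not tested.

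Same-numbered samples shared a preparation for replicates 1 (preparation 46) and 4 (preparation 90) but not for replicates 2 and 3. The correlations of the deviations of same-numbered samples were -0.23, -0.15, -0.15 and 0.25 for replicates 1 to 4. Since the samples of replicate 1 shared a preparation and gave -0.23, these values cannot tell whether samples were paired. With the replicate block 1309 genes were higher and 1558 lower, Lamb1 was not called (log2 fold change 0.83, adjusted p 0.0853 in edgeR), Lamb2 was (1.05, adjusted p 0.0431), and Nid1 was called too (0.68, adjusted p 0.0473). With the 3 shared preparations as a block 1316 genes were higher and 1793 lower.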
